A study of Mus musculus with 6 samples.

Results

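The platelet-derived growth factor (PDGF) family was followed here through its 4 ligand genes, Pdgfa, Pdgfb, Pdgfc and Pdgfd, and its 2 receptor genes, Pdgfra and Pdgfrb. They were taken by gene symbol from a table of 18849 genes, all 6 were found, and all 6 were among the 13390 genes tested. Whole-kidney RNA had been sequenced from male C57BL/6 mice, 8 weeks old, after 14 days of unilateral ureteral obstruction (UUO), in which the ureter of one kidney is tied off and the kidney scars. There were 3 control libraries, from mice whose Abl1 alleles carry loxP sites but remain intact (called floxed after the design text, although their genotype label reads WT), and 3 knockout libraries, from mice with the same alleles and the Ksp-Cre transgene. The promoter of kidney-specific cadherin (Cdh16) drives this recombinase, so Abl1 (c-Abl, a tyrosine kinase) is deleted in tubule epithelium and, by design, not in stromal, vascular or blood cells. All libraries came from obstructed kidneys, so each comparison is between genotypes within obstruction. The labels do not say that each library is a separate mouse, and p-values measure the spread between these libraries, which may be technical. The knockout is also labelled as a c-Abl knockdown. Wherever 3 values of a group stand together, they are those of replicates 1, 2 and 3 in that order.

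PDGF chains are secreted as dimers that bind a pair of receptor tyrosine kinases, which then phosphorylate each other and dock adaptors and enzymes. PDGF-A and PDGF-B are released ready for use, whereas PDGF-C and PDGF-D carry an extra CUB domain that proteases must remove. In the kidney the receptors are best known from stroma: PDGFR-alpha from fibroblasts, and PDGFR-beta from fibroblasts, pericytes and mesangial cells. The ligands come from epithelium, endothelium and infiltrating cells, among others. Signalling through both receptors is a known driver of fibroblast growth in scarring kidneys. The series title speaks of tubule cells positive for PDGFR-alpha. Whole-kidney RNA cannot show which cells a transcript came from, and fewer cells of a type and less RNA per cell cannot be told apart in it.

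Promoter windows were available for 4 of the 6 members, and the 3 whose windows are clear of the member's own exons are shown. Pdgfra had the largest difference between genotypes, and Pdgfd was lower in knockout replicates 1 and 2 alone. Pdgfc was the single member higher in the knockout kidneys. Each window holds the 250 bases before a transcription start in RefSeq (build GRCm38.p6), written 5′ to 3′ on the gene's strand, with matches to the motifs searched in capitals.
Pdgfra: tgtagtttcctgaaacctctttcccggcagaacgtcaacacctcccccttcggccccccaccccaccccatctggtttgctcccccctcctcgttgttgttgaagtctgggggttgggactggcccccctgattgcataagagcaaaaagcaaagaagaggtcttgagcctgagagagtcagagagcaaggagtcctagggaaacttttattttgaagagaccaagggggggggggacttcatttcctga
Pdgfd: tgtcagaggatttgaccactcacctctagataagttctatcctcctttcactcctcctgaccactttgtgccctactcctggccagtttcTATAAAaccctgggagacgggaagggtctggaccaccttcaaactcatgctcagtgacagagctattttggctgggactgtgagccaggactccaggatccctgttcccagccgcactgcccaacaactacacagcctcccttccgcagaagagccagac
Pdgfc: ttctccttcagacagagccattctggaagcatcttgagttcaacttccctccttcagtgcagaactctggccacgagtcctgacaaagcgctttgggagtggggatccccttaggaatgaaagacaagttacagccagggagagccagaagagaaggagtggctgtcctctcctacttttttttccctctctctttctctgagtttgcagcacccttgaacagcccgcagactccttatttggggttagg
The Pdgfra window is chr5:75152001-75152250 on the plus strand, the Pdgfd window chr9:6168236-6168485 on the plus strand and the Pdgfc window chr3:81036166-81036415 on the plus strand. Their GC contents were 54.4%, 53.6% and 50.8%. Both strands were searched for the GC box GGGCGG, the CCAAT box CCAAT, the TATA box TATAAA, the EGR site GCGNGGGCG, the AP-1 site TGANTCA and the TCF/LEF core CTTTGA, through which beta-catenin is recruited. Across 32841 promoter windows of the same length, these letters occurred in 32.7%, 33.9%, 12.4%, 4.7%, 6.75% and 13.8%. In the 3 windows printed, the TATAAA of Pdgfd was the single match, and it began 160 bases before the start. For Pdgfd and Pdgfra, unlike Pdgfc, the sequence just after the start was found in no GENCODE transcript of the gene. That search needed an exact run of bases, so a GENCODE start a little further downstream would be missed. The 2 windows listed for Pdgfa, which overlap exons of other Pdgfa transcripts and are not printed, were richer in G and C (66.4% and 72.4%) and held 1 and 2 GC boxes. A match is only a match of letters, and its absence says nothing of factor binding.

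Expression is given as FPKM, fragments per kilobase of gene scaled to the mapped fragments of the library, which allows levels of different genes to be compared per length. The table carries no read totals. The spacing of low values implied about 16050000 to 17900000 fragments per library, at which 1 FPKM in a 2-kb transcript stands for 32.1 to 35.8 fragments. Abl1, the deleted gene, read 18.16, 15.93 and 17.33 FPKM with floxed alleles, against 10.46, 14.45 and 12.91 FPKM in the knockout. These groups did not overlap, and the log2 difference of -0.42 did not pass (limma adjusted p = 0.144). The 3 knockout libraries were not alike. Across genes, knockout replicate 3 correlated at 0.9682 to 0.9689 with the floxed libraries and at 0.9409 and 0.96 with knockout replicates 1 and 2. Floxed replicate 1 stood apart by high lymphocyte markers, as described with the other cell type markers. Of the markers of dissected fat and muscle, 6 of 7 were in the table, with a summed level of at most 1.05 FPKM in any library.

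Pdgfra, the receptor that binds all chains but PDGF-D, was lower in every knockout library than in any floxed library. It read 12.41, 18.1 and 21.19 FPKM with floxed alleles, against 3.67, 4.11 and 9.66 FPKM in the knockout. Replicates 1 and 2 of the knockout were lowest, and replicate 3 lay nearest to the floxed range without entering it. The means were 17.2 ± 4.45 and 5.81 ± 3.34 FPKM (SD, n = 3 libraries each), a change of -66.3%. On the log2(FPKM + 1) scale, used for all fold changes below, the difference knockout minus floxed was -1.49 (SE 0.346, 95% interval -2.31 to -0.68), which did not pass limma's test adjusted over all genes (adjusted p = 0.0806).

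Pdgfrb, the receptor for PDGF-B and PDGF-D that pericytes and mesangial cells depend on, was also lower in every knockout library than in any floxed one. It read 32.48, 29.38 and 35.05 FPKM with floxed alleles, against 10.47, 8.05 and 22.54 FPKM in the knockout. Replicate 2 was the lowest of the knockout here, and replicate 3 again stood between the other knockout libraries and the floxed ones. The means were 32.3 ± 2.84 and 13.7 ± 7.76 FPKM, a change of -57.6% (log2 difference -1.30, SE 0.334, limma adjusted p = 0.0943).

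The log2 ratio of Pdgfra to Pdgfrb was -0.90 ± 0.367 in floxed and -1.09 ± 0.241 in knockout libraries, a difference of -0.19 (exact two-sided permutation p = 0.6, adjusted over 2 ratios 0.6). Leaving out each library in turn gave differences from -0.40 (without floxed replicate 1) to -0.08 (without floxed replicate 2). Pdgfra made up 27.6%, 38.1% and 37.7% of the summed receptor FPKM in floxed replicates 1, 2 and 3 and 26%, 33.8% and 30% in knockout replicates 1, 2 and 3, so these shares overlapped.

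Among the ligands, Pdgfb had the highest level and the largest difference. Its product is made by endothelium and macrophages and binds both receptors. Pdgfb read 50.64, 83.76 and 99.76 FPKM with floxed alleles, against 23.22, 31.76 and 53.88 FPKM in the knockout. Floxed replicate 1 was low and knockout replicate 3 high, and these libraries made the groups overlap. The means were 78.1 ± 25.1 and 36.3 ± 15.8 FPKM, a change of -53.5% (log2 difference -1.11, SE 0.354, limma adjusted p = 0.13).

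Pdgfa, whose product binds PDGFR-alpha, read 25.05, 24.47 and 30.75 FPKM with floxed alleles, against 10.91, 17.4 and 28.87 FPKM in the knockout. Knockout replicates 1 and 2 lay below all floxed libraries, whereas replicate 3 lay within the floxed range. The means of 26.8 ± 3.47 and 19.1 ± 9.09 FPKM differed by less than the spread of the knockout libraries (log2 difference -0.56, SE 0.316, limma adjusted p = 0.3). An antisense transcript, 6330403L08Rik, shares 813 exonic bases with Pdgfa in GENCODE, and without stated strand use its reads cannot be told apart from those of Pdgfa.

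Pdgfd, the PDGFR-beta ligand that needs proteolysis, read 11.77, 11.66 and 13.88 FPKM with floxed alleles, against 6.39, 6.76 and 11.96 FPKM in the knockout. As with Pdgfa, knockout replicates 1 and 2 were low and replicate 3 was at the floxed level. The means were 12.4 ± 1.25 and 8.37 ± 3.11 FPKM (log2 difference -0.56, SE 0.23, limma adjusted p = 0.192).

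Pdgfc, the PDGFR-alpha ligand that also needs proteolysis, went the other way. It read 10, 7.43 and 8.29 FPKM with floxed alleles, against 10.45, 10.54 and 11.4 FPKM in the knockout. All 3 knockout libraries were above all floxed libraries, by a narrow margin over floxed replicate 1, and they were close together. The means were 8.57 ± 1.31 and 10.8 ± 0.524 FPKM, 25.9% higher in the knockout kidneys (log2 difference 0.31, SE 0.138, 95% interval -0.02 to 0.64, limma adjusted p = 0.22). Antisense genes of GENCODE overlap exons of Pdgfc (Gm16000, 147 bases) and of Pdgfra (Gm42802, 456 bases), with the same limit.

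**Figure D1:**
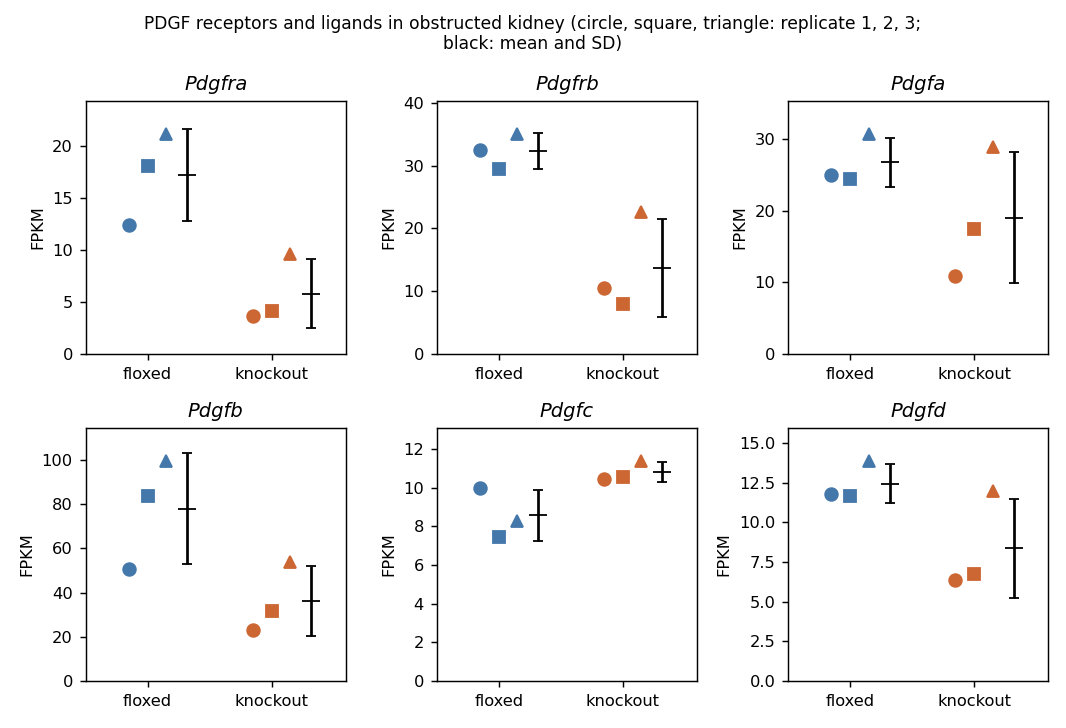
FPKM of the 2 receptors and 4 ligands (vertical axes from 0) in the 3 floxed and 3 knockout libraries, with symbols for the replicate number and black bars for the mean and SD. The groups are apart for Pdgfra, Pdgfrb and Pdgfc, and the triangle of knockout replicate 3 lies above the other knockout libraries in each panel.

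Of the 6 members, 0 passed the adjusted limma threshold, as against 9 of all 13390 genes (0.0672%). At an unadjusted limma p under 0.05, 4 members were lower (Pdgfra, Pdgfrb, Pdgfb and Pdgfd) and 0 higher, where 16.3% of all genes tested were lower and 8.38% higher. The groups did not overlap for 2 members that were lower and 1 that was higher, against 21.7% and 10% of all genes. The median log2 difference of the members was -0.84, beside -0.12 over all genes tested, of which 65.4% were below 0. Median-ratio scaling, which moved the median of all genes to -0.01, left the sign of each member as it was, with -1.39 for Pdgfra, -1.19 for Pdgfrb, -0.99 for Pdgfb, -0.46 for Pdgfd, -0.45 for Pdgfa and 0.42 for Pdgfc. There the unadjusted limma p of Pdgfc was 0.0076 and that of Pdgfd 0.0627.

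The count of members past the threshold changed with knockout replicate 3. Without it, 5 of 6 members fell past the adjusted limma threshold, where 15.4% of all genes fell and 9.02% rose. The log2 differences were then -1.87 for Pdgfra (adjusted p = 0.0053), -1.71 for Pdgfrb (0.00347), -1.43 for Pdgfb (0.0214), -0.90 for Pdgfa (0.0299) and -0.82 for Pdgfd (0.0102), all by limma, while Pdgfc stood at 0.27 (limma adjusted p = 0.225). That library was singled out for lying near the floxed libraries, so its removal raises the count by that choice and adds no support. Against the floxed mean, knockout replicates 1, 2 and 3 differed by -1.93, -1.80 and -0.74 for Pdgfra, by -1.53, -1.88 and -0.50 for Pdgfrb and by -1.65, -1.22 and -0.47 for Pdgfb. For Pdgfa they differed by -1.21, -0.59 and 0.11, and for Pdgfd by -0.86, -0.79 and -0.05. For Pdgfc the values were 0.27, 0.28 and 0.38, so knockout replicate 3, the least changed in the other members, was the highest here.

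**Figure D2:**
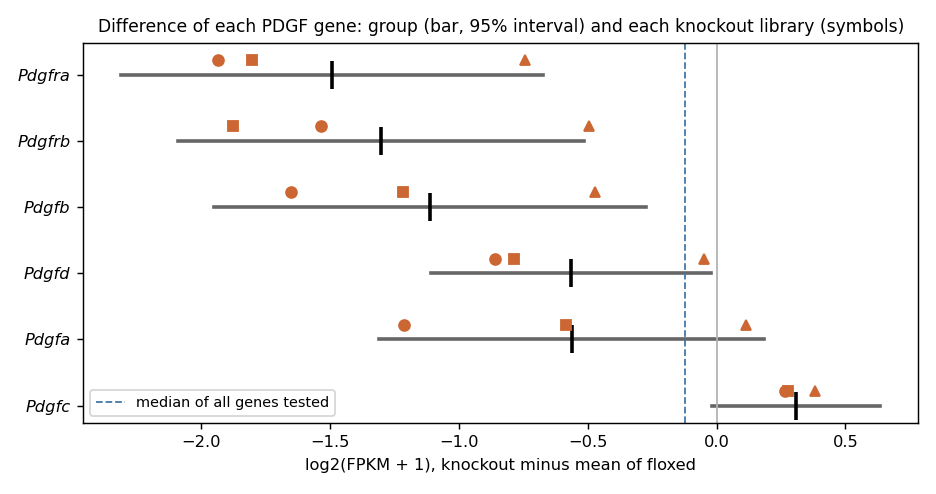
Difference from the floxed mean on the log2(FPKM + 1) scale (horizontal axis) for each PDGF gene. Black ticks and grey bars give the group difference and its 95% interval, orange symbols each knockout library, and the dashed line the median of all genes tested (-0.12). Knockout replicate 3 (triangles) lies to the right of replicates 1 and 2 in every row.

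The order of the 6 levels differed between the genotypes. In each of the 3 floxed libraries it ran, from high to low, Pdgfb, Pdgfrb, Pdgfa, Pdgfra, Pdgfd and Pdgfc. The floxed ranges of Pdgfrb and Pdgfa overlapped, as did those of Pdgfra and Pdgfd, and the other neighbours were apart. In each of the 3 knockout libraries Pdgfb was again highest, Pdgfa stood above Pdgfrb, and Pdgfra was the lowest of the 6. By mean the knockout order was Pdgfb, Pdgfa, Pdgfrb, Pdgfc, Pdgfd and Pdgfra, and there the ranges of all neighbours overlapped. Within a library, Pdgfra exceeded 47.7%, 62.6% and 67% of the genes tested in floxed replicates 1, 2 and 3 and 22.7%, 22.2% and 42.4% in knockout replicates 1, 2 and 3.

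The summed ligand level was 97.5, 127 and 153 FPKM in the floxed libraries, against 51, 66.5 and 106 FPKM in the knockout. The summed receptor level was 44.9, 47.5 and 56.2 FPKM, against 14.1, 12.2 and 32.2 FPKM. The ligand sum was thus above the receptor sum in every library. The log2 ratio of ligands to receptors was 1.10, 1.40 and 1.42 in floxed and 1.78, 2.36 and 1.69 in knockout replicates 1, 2 and 3. The groups did not overlap, with a difference of 0.63 (exact two-sided permutation p = 0.1, the smallest that 3 against 3 libraries allow, adjusted over 2 ratios 0.2). Pdgfb made up 61% ± 7.86 of the ligand sum in floxed and 48% ± 2.62 in knockout libraries. The share of Pdgfc was 10.3%, 5.84% and 5.43% in floxed and 20.5%, 15.9% and 10.7% in knockout replicates 1, 2 and 3, so all 3 knockout shares were above the floxed ones, the third by little.

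Of 10 proteases and binding partners of the PDGF chains, 0 passed the adjusted limma threshold and 4 were lower at an unadjusted limma p under 0.05. The median log2 difference was -0.22. Over all genes tested, 16.3% were lower by that p and the median was -0.12. One of the 4 was a protease, the proprotein convertase Pcsk7 (17.1 ± 1.80 and 13.0 ± 1.09 FPKM). Plat, which encodes the tissue plasminogen activator that removes the CUB domain of PDGF-C, read 49.97, 46.68 and 64.83 FPKM with floxed alleles, against 26.99, 28.62 and 71.02 FPKM in the knockout. Plau (urokinase) and St14 (matriptase), which act on PDGF-D, read 305.99, 221.62 and 389.53 against 366.61, 233.73 and 432.06 FPKM and 55.52, 52.11 and 51.8 against 34.3, 52.18 and 83.29 FPKM, and Furin had a log2 difference of 0.16. The other 3 were Sparc, a matrix protein that binds PDGF-B (520 ± 48.7 and 211 ± 98.8 FPKM), the endocytic co-receptor Lrp1 (14.7 ± 2.01 and 6.32 ± 3.47 FPKM) and the co-receptor Nrp1 (38.8 ± 4.85 and 25.9 ± 4.75 FPKM).

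The relay below the receptors had a median near that of all genes. Of 34 adaptors, kinases and effectors, 0 passed the adjusted limma threshold, 3 were lower at an unadjusted limma p under 0.05 and 0 higher. Over all genes tested, 16.3% were lower and 8.38% higher by that p. The median log2 difference was -0.18, beside -0.12 over all genes, and 31 of 34 were below 0, as were 65.4% of all genes. With median-ratio scaling the median was -0.07, beside -0.01 over all genes, and 23 of 34 were below 0, as were 51.6% of all genes. The 3 were the adaptor Shc1 (37.3 ± 1.27 and 26.7 ± 4.23 FPKM), the phosphatidylinositol 3-kinase subunit Pik3r1 (28.5 ± 4.10 and 18.8 ± 4.81 FPKM) and Abl1 itself, which PDGF receptors can activate. Abl1 is the gene deleted by design, so its lower level says nothing about the relay. Without knockout replicate 3, 7 of the 34 fell past the adjusted limma threshold, where 15.4% of all genes fell.

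Genes that restrain receptor tyrosine kinases had a lower median. Of 16, 0 passed the adjusted limma threshold. At an unadjusted limma p under 0.05, 10 were lower, where 16.3% of all genes tested were lower. The median was -0.52, and 15 were below 0, as were 65.4% of all genes. Without knockout replicate 3, 11 fell past the adjusted limma threshold, where 15.4% of all genes fell. With median-ratio scaling the median was -0.41, with 14 below 0, and 7 were lower and 1 higher at the unadjusted limma p. Over all 13390 genes so scaled, the median was -0.01, 51.6% were below 0 and 3285 passed that p in either direction. Pdgfrl, a secreted PDGF receptor-like protein without a kinase, read 3.35, 2.7 and 5.45 FPKM with floxed alleles, against 0.45, 0.51 and 1.59 FPKM in the knockout (log2 difference -1.40, limma adjusted p = 0.0723). The groups did not overlap, and the order of the knockout libraries was that of Pdgfra. The cytokine signal inhibitor Socs1 read 6.45 ± 1.82 and 3.21 ± 1.04 FPKM, and the ubiquitin ligases Cbl and Cblb, which mark active receptors for breakdown, 8.84 ± 0.520 and 5.96 ± 1.45 FPKM and 6.71 ± 0.583 and 4.36 ± 1.10 FPKM. Sprouty genes Spry1, Spry2 and Spry4 and the phosphatase Dusp6, feedback genes of the same kinase cascade, had log2 differences of -0.83, -0.52, -0.59 and -0.58.

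Among genes induced early by PDGF and other mitogens, every one tested had a difference below 0, as had 65.4% of all genes tested. Of 15, 13 were tested (Fosb and Fosl1 were too low), and 0 passed the adjusted limma threshold. Their median log2 difference was -0.91, beside -0.12 over all genes. At an unadjusted limma p under 0.05, 8 were lower, where 16.3% of all genes tested were lower. With median-ratio scaling 6 were lower by that p, where 3285 of all 13390 genes passed it in either direction. The median of the list was then -0.81, beside -0.01 over all genes. Without knockout replicate 3, 10 fell past the adjusted limma threshold, where 15.4% of all genes fell. The transcription factor Egr2 read 8.09, 15.21 and 15.82 FPKM with floxed alleles, against 1.83, 1.92 and 4.52 FPKM in the knockout (log2 difference -1.92, limma adjusted p = 0.0547). Its groups were apart, as were those of Egr3 (1.82 ± 0.519 and 0.487 ± 0.146 FPKM), Srf (15.3 ± 2.64 and 8.93 ± 1.26 FPKM) and Fos (14.2 ± 2.57 and 5.83 ± 2.94 FPKM). Jun and Junb read 80.61 and 108.81 FPKM in knockout replicate 3, above every floxed library. Many signals besides PDGF induce these genes.

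Relatives of the family lay on both sides of 0. Among the 5 VEGF-branch ligands, 2 were lower at an unadjusted limma p under 0.05 and 0 higher, against 16.3% and 8.38% of all genes. These were Vegfd (7.32 ± 2.01 and 2.85 ± 0.776 FPKM) and Vegfc (3.77 ± 0.299 and 2.53 ± 0.293 FPKM), which act on lymphatic vessels, whereas Vegfa read 88.04, 50.59 and 57.02 FPKM with floxed alleles, against 85.48, 109.55 and 50.88 FPKM in the knockout. Among 6 related receptor kinases, 2 were lower by the same rule, the macrophage receptor Csf1r (54.4 ± 7.44 and 32.4 ± 9.39 FPKM) and Flt3 (3 ± 0.887 and 1.47 ± 0.461 FPKM). Kit, the stem cell factor receptor, stood at a log2 difference of 0.10 and the VEGF receptor Kdr at -0.29.

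**Figure D3:**
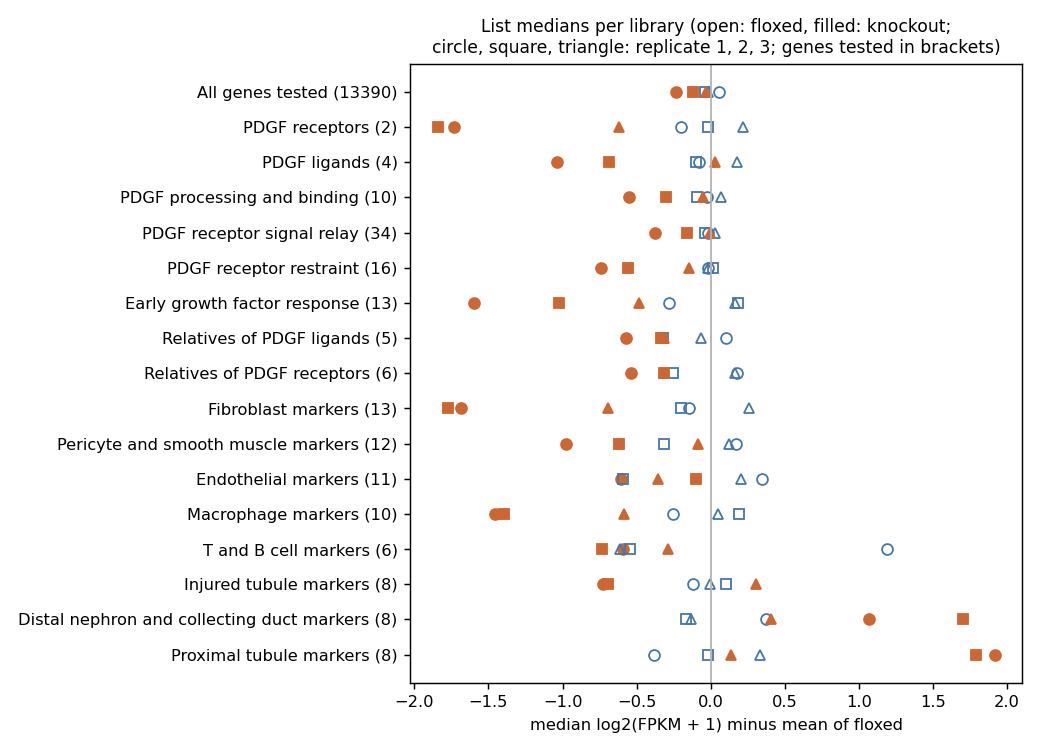
Median difference from the floxed mean on the log2(FPKM + 1) scale (horizontal axis) for each list of genes in each library, floxed open and knockout filled. The receptor row and the fibroblast row look alike, at -1.73, -1.84 and -0.62 and at -1.68, -1.78 and -0.69 in knockout replicates 1, 2 and 3. The macrophage row (-1.45, -1.39 and -0.59) and the early response row (-1.60, -1.03 and -0.49) also lie below the floxed level, with replicate 3 nearest to it. The signal relay lies near the row of all genes.

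Fibroblast, pericyte and macrophage markers were mostly below the floxed level beside the receptors and Pdgfb, and their part in the differences was not tested. Of 14 fibroblast markers, 13 were tested and 13 were below 0, 11 at an unadjusted limma p under 0.05. Over all genes tested, 65.4% were below 0 and 16.3% were lower at that p. One fibroblast marker, the matrix protein dermatopontin (Dpt, 12.7 ± 1.71 to 2.55 ± 0.748 FPKM), fell past the adjusted limma threshold (adjusted p = 0.0446). The summed fibroblast markers spanned 608.5 to 809 FPKM in floxed and 124 to 364 FPKM in knockout libraries, and the decorin gene Dcn read 78.86, 80.98 and 80.24 FPKM with floxed alleles, against 26.34, 25.66 and 40.33 FPKM in the knockout. Of 12 pericyte and smooth muscle markers, 5 were lower at an unadjusted limma p under 0.05 and 11 were below 0 (191 to 290 FPKM summed in floxed and 76.5 to 197 FPKM in knockout libraries). Among these, desmin (Des) read 13.2 ± 1.02 and 4.83 ± 2.80 FPKM, but Rgs5, a defining pericyte gene, 41.13, 12.94 and 25.74 FPKM, against 11.28, 23.96 and 29.78 FPKM in the knockout.

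Set against the fibroblast markers, the receptors were near their floxed level. The log2 level of Pdgfra minus the mean of the 13 tested fibroblast markers was -0.63, 0.06 and -0.20 in floxed and -0.48, -0.27 and -0.20 in knockout replicates 1, 2 and 3. For Pdgfrb the same quantity was 0.69, 0.73 and 0.50 and 0.82, 0.56 and 0.95, so both receptors overlapped between the genotypes. Against the 12 pericyte and smooth muscle markers, Pdgfra was 0.23, 1.29 and 0.99 in floxed and -0.10, -0.15 and 0.14 in knockout replicates 1, 2 and 3, and Pdgfrb 1.55, 1.96 and 1.69 and 1.19, 0.67 and 1.28. There the groups did not overlap for either receptor, whose levels were lower relative to mural cell markers by 0.88 and 0.69. Overlap between the genotypes was not limited to the fibroblast markers. Against the 10 macrophage markers both receptors overlapped too, with differences of -0.46 for Pdgfra and -0.27 for Pdgfrb. Against the 11 endothelial markers they also overlapped, with differences of -1.13 and -0.94. These quantities share libraries and carry no test.

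For the ligands the same subtraction gave other patterns. Pdgfb minus the mean of 11 endothelial markers was 1.63, 3.28 and 2.77 in floxed and 1.48, 1.5 and 2.45 in knockout replicates 1, 2 and 3, an overlap through floxed replicate 1. The endothelial markers themselves had a median of -0.35, with 1 of 11 lower at an unadjusted limma p under 0.05 (Emcn, 52.1 ± 13.5 and 30.5 ± 5.93 FPKM) and summed levels of 120 to 233 and 115 to 150 FPKM. Against 10 macrophage markers Pdgfb was -0.69, -0.29 and 0.14 in floxed and -0.60, -0.22 and -0.26 in knockout replicates 1, 2 and 3, a difference of -0.08. Of those 10 markers, 9 were lower at an unadjusted limma p under 0.05, as were 16.3% of all genes tested. Their summed levels were 1876 to 2653 FPKM in floxed and 753 to 1532 FPKM in knockout libraries. Ms4a7 fell past the adjusted threshold (34.7 ± 6.49 to 11 ± 0.777 FPKM, limma adjusted p = 0.0446). Pdgfc, Pdgfa and Pdgfd were higher relative to fibroblast markers in all 3 knockout libraries than in any floxed library, by 1.74, 0.87 and 0.87. The fibroblast marker mean itself differed by -1.44, so a gene that fell less comes out higher by this subtraction. Taken alone, Pdgfa and Pdgfd each differed by -0.56.

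**Figure D4:**
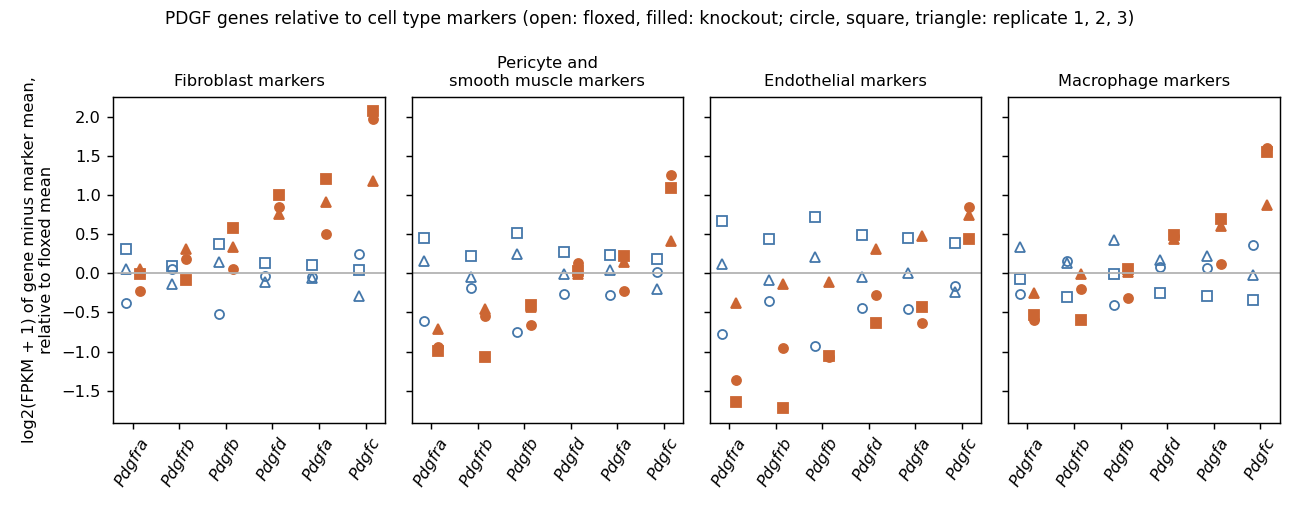
Level of each PDGF gene minus the mean level of 4 sets of cell type markers, on the log2(FPKM + 1) scale and centred on the floxed mean (vertical axis), floxed open and knockout filled. In the fibroblast panel Pdgfra, Pdgfrb and Pdgfb overlap between genotypes and Pdgfa, Pdgfc and Pdgfd lie apart. Pdgfc lies apart in all 4 panels. In the pericyte and smooth muscle panel both receptors lie below the floxed libraries.

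Proximal and distal tubule markers were above the floxed level and injured tubule and podocyte markers mostly below it, and their part was not tested either. All 8 proximal tubule markers were above 0, 5 at an unadjusted limma p under 0.05. Over all genes tested, 8.38% were higher and 16.3% lower at that p. The proximal tubule markers summed to 444 to 765 FPKM in floxed libraries and to 2918, 2677 and 620 FPKM in knockout replicates 1, 2 and 3. The sum of knockout replicate 3 lay within the floxed range, although Slc5a12, Cubn and Aqp1 were above every floxed library there. Of 8 distal nephron and collecting duct markers, 7 were higher at an unadjusted limma p under 0.05 (793 to 992 and 1113 to 2184 FPKM summed), among them Cdh16 (216 ± 17.3 and 321 ± 61.0 FPKM), whose promoter drives the Cre. Of 8 markers of injured tubule, 7 were below 0, with a median of -0.46. Over all genes tested, 65.4% were below 0 and the median was -0.12. Without knockout replicate 3, 4 of the 8 fell past the adjusted limma threshold, where 15.4% of all genes fell. With all libraries, 0 of the 8 passed in either direction at an unadjusted limma p under 0.05 (12728 to 20422 and 11669 to 19806 FPKM summed). Of 6 podocyte markers, 5 were lower by that rule (98.7 to 148 and 70.6 to 93.6 FPKM summed), such as Ptpro (7.92 ± 1.17 and 4.49 ± 0.752 FPKM), and of 4 mesangial and renin cell markers 2, such as Itga8 (3.86 ± 1.30 and 1.75 ± 0.234 FPKM).

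Lymphocyte markers set floxed replicate 1 apart. The 8 markers of T and B cells summed to 156, 25.6 and 23.7 FPKM in floxed replicates 1, 2 and 3 and to 29.8 to 38.3 FPKM in the knockout libraries, and the B cell receptor gene Cd79a alone read 54.7 FPKM in floxed replicate 1. That library also had the lowest floxed values of Pdgfb and Pdgfra and the highest of Pdgfc. Without it, the log2 difference was -1.39 for Pdgfb (limma adjusted p = 0.155), -1.70 for Pdgfra (0.136) and 0.41 for Pdgfc (0.192).

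The members also differed in which genes had the most similar profile over the 6 libraries. Likeness was measured as the root mean square difference between 2 genes' log2(FPKM + 1) values, each centred on its own mean, among 10273 other genes with a mean FPKM of at least 5. For Pdgfra the 4 nearest genes were the lysozyme gene Lyz2 (0.09), a macrophage marker, the caldesmon gene Cald1 (0.11), the elastic matrix gene Emilin1 (0.14) and the adhesion gene Fblim1 (0.14), where the median over all compared genes was 0.82. For Pdgfrb they were desmin (Des, 0.09), Pdlim1 (0.09), Gm13889 (0.10) and the macrophage lectin Mgl2 (0.11). Pdgfb lay nearest to Myc (0.07), which is also one of the early response genes and read 16.54, 29.58 and 35.53 FPKM with floxed alleles, against 7.89, 11.28 and 20.7 FPKM in the knockout. The urokinase receptor Plaur (0.10), Rerg (0.11) and Plk2 (0.14) followed.

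Pdgfa lay nearest to the LIM domain gene Csrp1 (0.06), followed by Cavin1 (0.08), Gxylt2 (0.09) and Fam129b (0.10). Pdgfd lay nearest to Ywhah (0.04), Trim35 (0.07), the TGF-beta receptor Tgfbr2 (0.07) and Nxn (0.07), and the genes near Pdgfc included the receptor kinase gene Erbb2 (0.05), Zkscan14 (0.05) and Pdpr (0.06). Within the family the closest pairs were Pdgfa with Pdgfd (0.18), Pdgfra with Pdgfb (0.23) and Pdgfra with Pdgfrb (0.27), and the most distant was Pdgfc with Pdgfra (1.01). These distances describe 6 libraries that share 2 genotypes, and a small change over the libraries makes small distances easier to reach, as the medians over all compared genes of 0.29 for Pdgfc and 0.82 for Pdgfra show.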

How the data were processed

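RNA sequencing of whole obstructed kidney was available for 3 floxed and 3 knockout libraries, grouped and numbered by their titles. RNA had been extracted with TRIzol and libraries made by an Illumina protocol, per the labels' protocols. The deposited table holds FPKM for each gene in each library, computed by the authors, per the file headers. The submitters' processing notes name the build mm9. Aligner, counting tool, annotation, filters and use of strand: not given in the sources used here, so that reads of antisense and overlapping genes cannot be separated.

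A gene was tested if 3 or more libraries had an FPKM of 1 or higher, which left 13390 of 18849. Knockout was compared with floxed on log2(FPKM + 1), which understates the change of low genes. The test was limma 3.58.1 (R 4.3.3), two-sided, with a trend of variance on mean and no covariate, adjusted by Benjamini and Hochberg over all genes tested, with a threshold of 0.05. The fit was tested on simulated data with independent noise, set from the floxed spread in both groups. That test does not show how the fit behaves when 1 knockout library stands apart. The 2 ratios were compared by exact permutation over libraries. Figures and depths were made in Python 3.11.15 (matplotlib 3.10.9, pandas 2.3.3, numpy 2.4.6). In 26 symbols, spreadsheet dates were restored through Entrez identifiers. Depth was estimated from low FPKM values of transcripts of 300 to 2000 nucleotides in GENCODE, of which 67.3% to 71.2% lay within 0.2 of a whole fragment, where an even spread gives 40%. Promoter windows come from RefSeq (GRCm38.p6, a later build than mm9) for 4 of the 6 members, and those that overlap GENCODE exons of the member are not printed. Alternatives were other pseudocounts, filters and scalings, no trend, array weights, the replicate block and leaving out each library.

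By rule the text names the members, Abl1, Cdh16, up to 4 genes of smallest p per list, every list gene past the threshold and the 4 nearest genes per member, of which 1 is not reported here. Plat, Plau, St14, Furin, Spry1, Spry2, Spry4, Dusp6, Jun, Junb, Vegfa, Kit, Kdr, Rgs5 and Cd79a were added after their values were seen. The members and lists were chosen with earlier results of these data known.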

Additional observations from a re-analysis of the deposited data

How the results depend on the processing

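Across 16 alternatives per member, 88 of 96 log2 differences kept their direction and their side of the threshold, 8 passed it in the same direction and 0 changed sign. With array weights, -1.40 for Pdgfb, -1.75 for Pdgfra and -1.42 for Pdgfrb passed, 3 members in all and 1456 genes, although the weights stopped short of convergence. Leaving out 1 library gave -0.90 to -0.24 for Pdgfa, -1.43 to -0.84 for Pdgfb, 0.22 to 0.41 for Pdgfc, -0.82 to -0.42 for Pdgfd, -1.87 to -1.27 for Pdgfra and -1.71 to -1.02 for Pdgfrb, with 0 to 5 members and 0 to 3271 genes past the limma threshold. The extremes of 5 members and 3271 genes came without knockout replicate 3. The count of 0 genes by limma came without floxed replicate 2 or 3, where 2298 and 2146 had an unadjusted p under 0.05. The cause was not tested. Only 1 gene passed, and it was higher, in each of 7 other fits, against 4 higher and 5 lower genes as reported: limma without its trend, quantile scaling, median-ratio scaling, all genes unfiltered, genes of mean FPKM 5 or more, and pseudocounts of 0.1 and 0.01. With the replicate block it was 2 genes and 0 members. Across genes, deviations of same-numbered libraries correlated at -0.126, -0.0699 and 0.034, and not every library correlated best with its own number. These values do not decide whether equal numbers mark pairs. With the replicate block the SE was 0.153 instead of 0.354 for Pdgfb and 0.207 instead of 0.346 for Pdgfra. It was smaller for all members but Pdgfc (0.163 instead of 0.138). FPKM without read totals limits statements on low genes such as Pdgfrl to approximate depth.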
